A study of Mus musculus with 6 samples.

Results

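DNA replication and S phase genes were examined in mouse megakaryocytes that carry at least 1 normal FOG1 allele or only a knocked-in FOG1 allele. The set holds 46 named genes, chosen by name and function. A gene entered through the probe sets that the array annotation assigns to that gene alone, and its brightest probe set, by the mean over all arrays, gave its value. This yielded 45 of the 46 genes, all above the filter on dim probe sets, among 11260 genes tested in all. Chaf1a had no such probe set and is not analysed here.

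Expression was measured on 6 arrays of megakaryocytes grown from fetal liver cells with thrombopoietin and isolated on a bovine serum albumin gradient, from mice of mixed C57BL/6xSv129 background. The control group held 3 cultures, of which 2 were FOG1+/- (replicates 1 and 2) and 1 was FOG1+/+ (replicate 3). The other 3 cultures, labelled FOG1-/- ki/ki and called FOG1 ki/ki from here on, carried only the knocked-in allele. FOG1 is the product of Zfpm1 and binds GATA transcription factors as a cofactor. The labels do not describe the change that was knocked in, the age of the embryos, or whether a culture pooled animals. They call the cultures biological replicates but do not say that each came from its own animal, so the spread between them may in part be technical.

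DNA replication starts when the origin recognition complex, Cdc6 and Cdt1 load the MCM helicase onto origins, a step called licensing that geminin blocks. The helicase is switched on by Cdc45, the GINS complex and Mcm10, and the polymerases then copy DNA with the sliding clamp PCNA, its loader RFC and the single-strand binding protein RPA. Many of these genes are targets of E2F transcription factors and peak around S phase. Megakaryocytes replicate their DNA repeatedly without dividing, a process called endomitosis, so they use this machinery as they become polyploid.

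The replication genes read slightly higher in FOG1 ki/ki than in control cultures, and the differences, from -0.0071 (Gins1) to 0.78 (Lig1) on the log2 scale, had a median SE of 0.30, or 0.16 with the replicate number as a block. Of the 45 genes, 44 had a mean log2 difference above 0, or 97.8%, against 55.1% of all genes tested. The median log2 difference over the 45 was 0.29, against 0.03 over all genes tested, on the scale log2(signal + 16). No member passed limma's test over all genes (0 of 45 at an adjusted p under 0.05, smallest adjusted p = 0.635), where 0.151% of all genes were called. At an unadjusted p under 0.05 there was 1 member, higher in FOG1 ki/ki, or 2.22%, against 3% of all genes (338 of 11260). With the replicate number as a block, 0 members passed as well (smallest limma adjusted p = 0.107), where 0.835% of all genes were called. At an unadjusted p under 0.05, the blocked fit had 12 members higher in FOG1 ki/ki, or 26.7%, against 7.99% of all genes. The genes were chosen with earlier results of these arrays known, so these shares are a description and not a test of the set. In bulk RNA, more cycling cells and more of a transcript per cell cannot be told apart.

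Replication genes were mostly bright, with 33 of 45 above the median level of the genes tested, so the background was also taken at matched brightness. The median difference of all genes was 0.05, 0.06 and 0.04 in brightness classes 2, 3 and 4, of 4 equal classes from dim to bright. The members in those classes had medians of 0.29 (11 genes), 0.32 (14 genes) and 0.28 (19 genes). Class 1 held Tyms alone. The members' medians thus differed little between these classes.

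**Figure D1:**
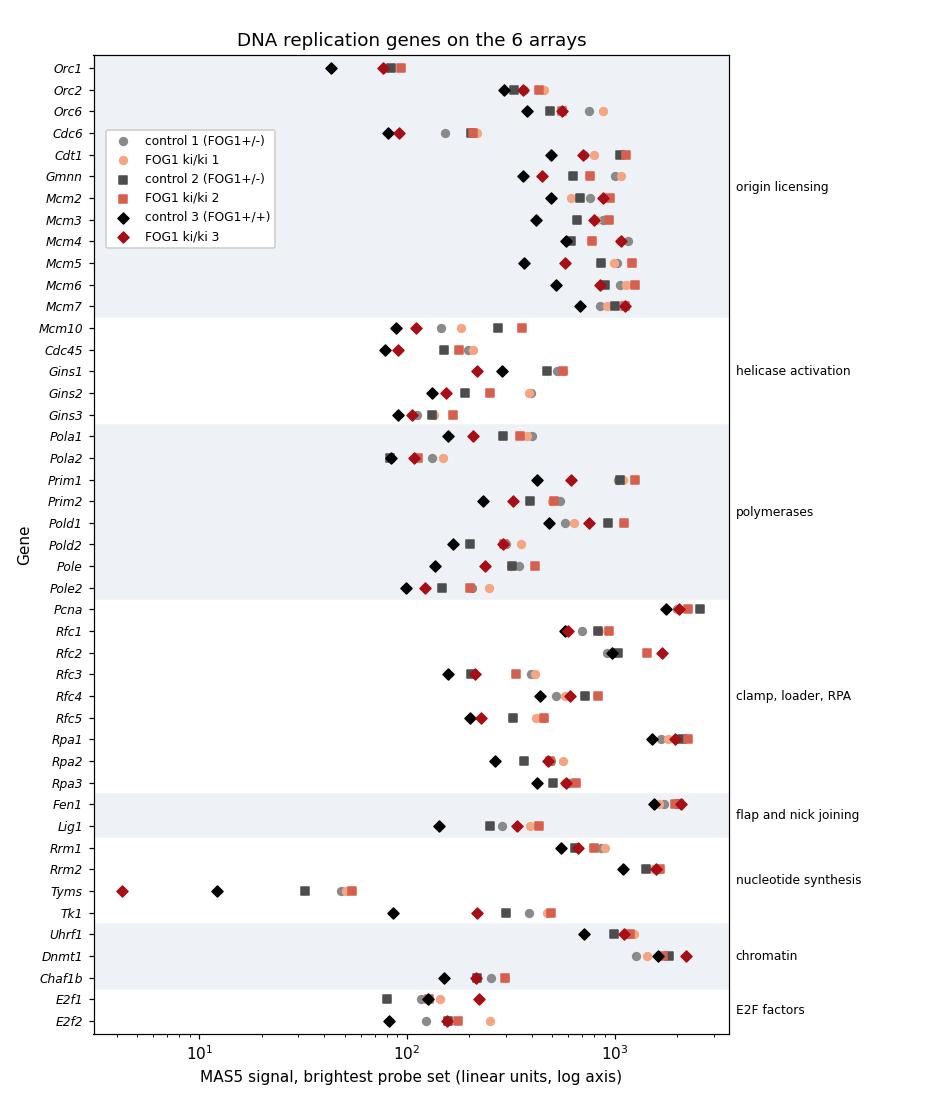
MAS5 signal (linear units on a log axis) of the brightest probe set of each of 45 replication genes on the 6 arrays, grouped by role. Controls are grey to black and FOG1 ki/ki arrays are orange to red, with one marker shape for each replicate number. The FOG1+/+ control (black diamonds) is the lowest array for 39 of the 45 genes.

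The size of the difference depended on the replicate number. FOG1 ki/ki minus the control of the same number gave a median over the members of 0.0985 in pair 1, 0.34 in pair 2 and 0.47 in pair 3, against -4.35e-05, 0.04 and 0.05 over all genes tested. Members above control numbered 33 in pair 1, 42 in pair 2 and 43 in pair 3. The 12 below control in pair 1 were Mcm2, Mcm3, Mcm4, Mcm5, Gins2, Pola1, Prim2, Pole, Rfc5, Rpa3, Fen1 and Rrm2. Pcna, Fen1 and Dnmt1 were the 3 below in pair 2, and Gins1 and Tyms the 2 below in pair 3. In all 3 pairs, 29 of 45 members were above control, or 64.4%, where 24.8% of all genes were. Pair 3 gave the largest difference for 66.7% of members and for 42.1% of all genes.

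**Figure D2:**
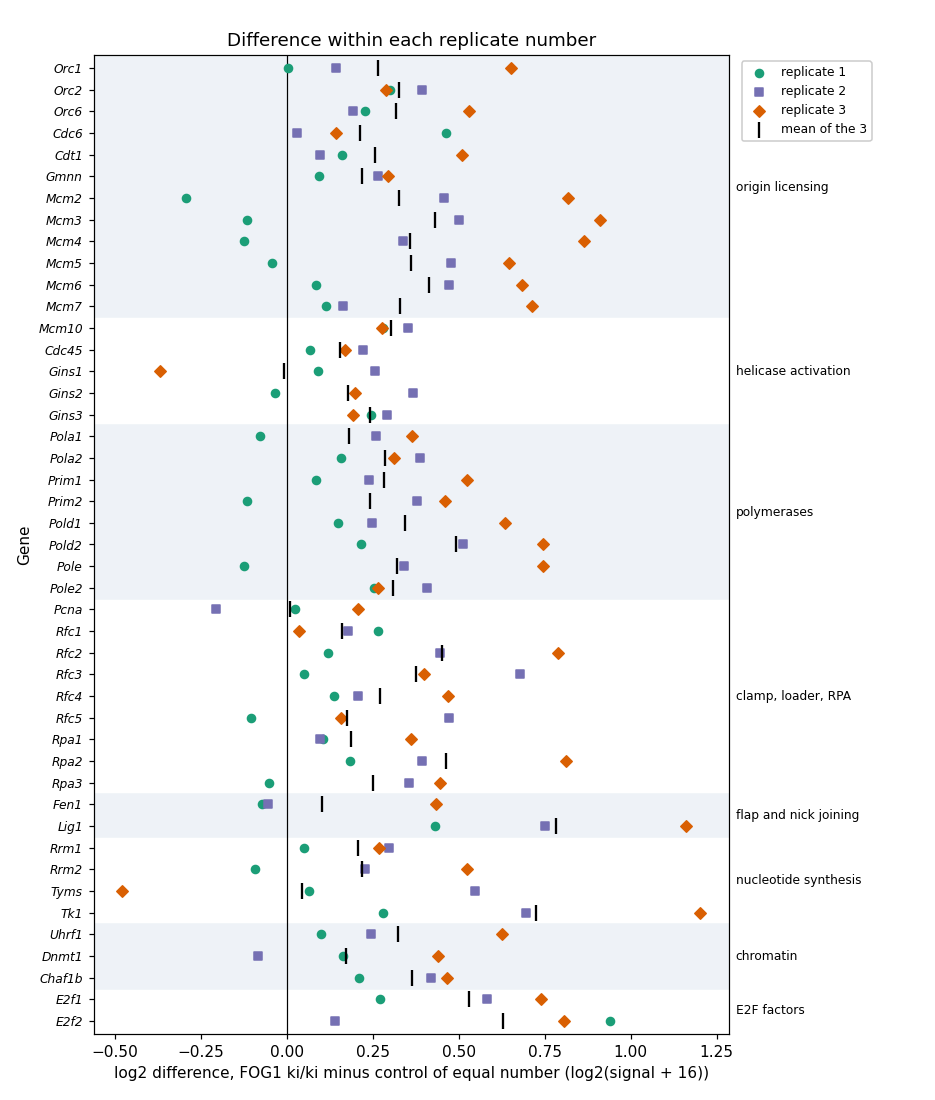
Log2 difference (FOG1 ki/ki minus the control of equal replicate number, on log2(signal + 16)) for each of 45 replication genes, with a marker for each replicate number and a bar for their mean. Of the 45 genes, 12 lie below 0 in pair 1, 3 in pair 2 and 2 in pair 3.

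Pair 3 holds the FOG1+/+ control, and that array read low for nearly every replication gene. It was the lowest of the 6 arrays for 39 of 45 members, or 86.7%, while it was the lowest for 26.7% of all genes tested. Its members lay a median of 0.65 log2 units below the mean of the FOG1+/- controls (43 of 45 below, median difference -0.65, against -0.04 over all genes). FOG1 ki/ki replicate 3 also read low against the other FOG1 ki/ki arrays, with a median of -0.34 and 38 of 45 members below, against -0.000648 over all genes. With a single FOG1+/+ array, genotype and replicate number cannot be told apart.

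The median difference rested in part on that array. Without control replicate 3 the members' median was 0.10 and 30 of 45 lay above control. The median became 0.46 if control replicate 1 was left out and 0.43 if FOG1 ki/ki replicate 3 was. Leaving out both arrays numbered 3, which keeps FOG1+/- controls only, gave 0.18 with 43 of 45 above control. Pcna and Fen1 were then the members below control, at -0.090 and -0.063.

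**Figure D3:**
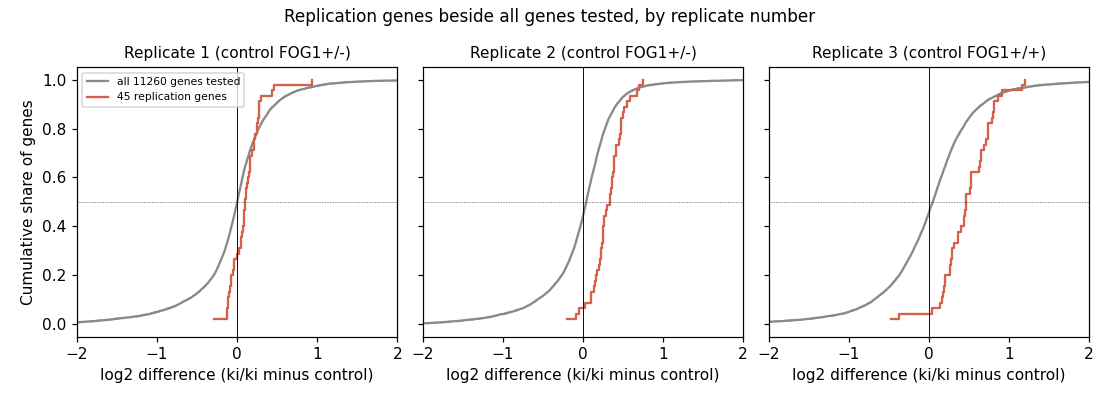
Cumulative share of genes (vertical axis) by log2 difference, FOG1 ki/ki minus control, for 45 replication genes (red) and all 11260 genes tested (grey), in a panel for each replicate number. The horizontal axis ends at 2 log2 units either way. The red curve crosses the middle at 0.0985, 0.34 and 0.47, to the right of the grey curve in each panel.

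Markers of other cells also differed between the arrays. Of 9 measured neutrophil and granule precursor genes, all 9 read lower on control replicate 3 than on both other controls, and all 9 lower on FOG1 ki/ki replicate 3 than on both other FOG1 ki/ki arrays. Their summed signal on control and FOG1 ki/ki replicate 3 was 2750 and 3918, while the other 4 arrays had 9325 to 16345. Elane, the neutrophil elastase gene, read 2.63 and 3.40 there and 241 to 499.9 elsewhere. All 10 fibroblast markers were likewise lowest on the replicate 3 array of each group, with sums of 412 and 258 there and 1980 to 8143 elsewhere.

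Between the groups, summed mast cell markers ranged from 733 to 3818 in controls and from 6550 to 7227 in FOG1 ki/ki (11 measured, 10 with a higher mean in FOG1 ki/ki, Mcpt4 and Tpsb2 near 0). Fcer1a gave much of these sums and read 1891, 2167.5 and 93.1 in control replicates 1, 2 and 3. Ms4a2 differed by 2.77 log2 units without overlap (limma adjusted p = 0.255, or 0.00902 with the block). Summed macrophage markers ranged from 7949 to 12333 in controls and from 3709 to 9736 in FOG1 ki/ki, with 0 of 10 higher. Erythroid markers summed to 2661 to 2922 and 2316 to 2671 (7 measured, 4 with a higher mean in FOG1 ki/ki), and Hba-a1, Alas2, Rhag and Slc4a1 were near 0 on all arrays. Of the 3 past the filter, Klf1 differed by 1.86 log2 units (limma adjusted p = 0.302, or 0.0667 with the block). Epor differed by -0.75 and Tfrc, which gave most of the sum, by -0.13. Lymphoid markers summed to 1486 to 1946 and 889 to 1457 (7 measured, 2 with a higher mean in FOG1 ki/ki), with Cd3e and Cd79a near 0. Of the 5 lymphoid markers past the filter, 1 lay above 0, Nkg7 at 2.06 log2 units (limma adjusted p = 0.434, or 0.0766 with the block). Cd28 ran the other way, at -2.77 (limma adjusted p = 0.223, or 0.00902 with the block). The 9 measured megakaryocyte markers, among them Itga2b, Pf4 and Vwf, were bright on all arrays (sums of 16114 to 24326) and 0 of the 9 had a higher mean in FOG1 ki/ki. Of these, 3 did not overlap between groups and were lower in FOG1 ki/ki, namely Gp6 (-1.35 log2 units, limma adjusted p = 0.356, or 0.0342 with the block), Tubb1 (-1.01) and Gp9 (-0.28), and Gp1bb differed by -0.52. Among all genes tested, 555 of 11260 were lower without overlap. The ratio of 3′ to 5′ signal of Gapdh, a sign of RNA integrity, ranged from 1.20 to 1.86 on the other arrays and was 2.38 on FOG1 ki/ki replicate 3. Zfpm1 itself averaged 810 (controls) and 874 (FOG1 ki/ki), which does not check the genotypes because the knocked-in allele can be transcribed. The part of these differences in the replication genes was not tested.

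All 12 licensing genes had a mean difference above 0, from 0.21 for Cdc6 to 0.43 for Mcm3, with a median of 0.33. No licensing gene passed limma's test (0 of 12, smallest adjusted p = 0.912, or 0.199 with the block), and 3 of the 12 had an unadjusted p under 0.05 with the block. For this and the later groups, the shares of all genes tested were 55.1% above 0 and 7.99% higher at an unadjusted p under 0.05 with the block. Control replicate 3 was the lowest array for all 12 licensing genes. Without that array the licensing median was 0.11, and without control replicate 1 it was 0.51.

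Mcm7, a subunit of the helicase ring, read 852, 1002 and 682 in control replicates 1, 2 and 3 and 924, 1124 and 1129 in the FOG1 ki/ki replicates (difference 0.33 log2 units, SE 0.19, limma adjusted p = 0.912, or 0.295 with the block). Mcm6, another subunit of the ring, read 1063, 896 and 522 in controls and 1129, 1249 and 848 in FOG1 ki/ki (0.41, SE 0.28). For both genes FOG1 ki/ki was the higher of each pair, and the groups overlapped. Mcm3 read 881, 659 and 417 in controls and 812, 940 and 797 in FOG1 ki/ki (0.43, SE 0.27). Mcm2 read 761, 685 and 492 in controls and 619, 947 and 879 in FOG1 ki/ki (0.33, SE 0.24). On their brightest probe sets Mcm2 and Mcm3 thus ran below control in pair 1 and above it in the other pairs, and so did Mcm4 (0.36) and Mcm5 (0.36). The next brightest probe set of each lay slightly above control in pair 1. Control and FOG1 ki/ki replicate 1 read 415.5 and 420.5 for Mcm2 and 761.8 and 784.2 for Mcm3. They read 783.7 and 803.8 for Mcm4 and 425.9 and 447.1 for Mcm5. A dim further Mcm5 probe set read 60.4 and 45.9. The direction in pair 1 thus depended on the probe set.

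The MCM ring, singled out after its values were seen, differed more between the pairs than the other licensing genes did. The 6 subunits Mcm2 to Mcm7 had medians of -0.08, 0.46 and 0.77 in pairs 1, 2 and 3, with ranges of -0.29 to 0.11, 0.16 to 0.50 and 0.65 to 0.91. The ranges of the 6 subunits did not overlap between pairs. These values are from the brightest probe sets, and the values below 0 in pair 1 were not seen on the next brightest ones. The subunits share their arrays and are not replicates. The other 6 licensing genes had medians of 0.19, 0.17 and 0.40 in the same pairs.

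Orc2, a core subunit of the origin recognition complex, read 367, 326 and 294 in controls and 455, 434 and 363 in FOG1 ki/ki (difference 0.33 log2 units, SE 0.21, limma adjusted p = 0.939, or 0.246 with the block). FOG1 ki/ki replicate 3 lay just under the brightest control, and the pair differences of 0.30, 0.39 and 0.29 were close to each other. Orc6 had a difference of 0.32 and Orc1, the ATPase subunit, one of 0.27. The subunits Orc3, Orc4 and Orc5, outside the set, differed little, by 0.03, -0.10 and 0.05. Cdt1, which brings MCM to origins, differed by 0.26, its inhibitor geminin (Gmnn) by 0.22 and the loading ATPase Cdc6 by 0.21. Loader and inhibitor differed by a similar amount.

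Promoter sequences were searched for motifs, which the choice of genes did not use. RefSeq promoters (GRCm38.p6) were held for 39 of the 46 genes, and the missing ones were Gmnn, Mcm4, Gins1, Gins2, Prim2, Pole and Rfc2. The E2F-type motif, searched as TTTCCCGC, TTTCGCGC, TTTGCCGC or TTTGGCGC on both strands in the 250 bases before the start, matched in 10 of the 39 genes, or 25.6%. It matched in 4.03% of the 9188 tested genes with a promoter, and in 2.16% of all 27025 genes with one. The count was 5 of 10 licensing, 1 of 6 polymerase and 0 of 4 nucleotide synthesis genes. The CCAAT box (CCAAT, both strands) was in 66.7% of the 39 genes and in 40.4% of the tested genes. The following 100-base stretches, upstream of the gene start and 5′ to 3′ on the gene's strand, are shown because they hold matches in 3 licensing genes and 1 polymerase gene. Capitals mark the bases of each E2F-type match (CCAAT boxes are not marked), and adjoining matches on the 2 strands overlap.
Mcm5, chr8:75109336-75109435, plus strand: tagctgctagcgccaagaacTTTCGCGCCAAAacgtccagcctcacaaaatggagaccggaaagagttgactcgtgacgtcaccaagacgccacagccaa
Mcm6, chr1:128359736-128359835, minus strand: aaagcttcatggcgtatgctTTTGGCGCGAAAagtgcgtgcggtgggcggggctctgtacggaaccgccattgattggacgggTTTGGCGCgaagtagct
Cdc6, chr11:98907993-98908092, plus strand: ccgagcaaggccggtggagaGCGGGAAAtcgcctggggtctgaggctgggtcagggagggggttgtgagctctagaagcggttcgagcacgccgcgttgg
Pola1, chrX:93632214-93632313, minus strand: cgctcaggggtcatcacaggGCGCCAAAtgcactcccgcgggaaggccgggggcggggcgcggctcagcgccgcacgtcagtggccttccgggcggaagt

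Mcm5 and Mcm6 hold matches on both strands that share their central bases, and Mcm6 holds a second site nearer the start. A match is a description of the letters and not evidence of binding. The 10 genes with a match had a median log2 difference of 0.29 and the 28 measured genes without one had 0.30.

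Genes of helicase activation had a median difference of 0.18, with 4 of 5 above 0. Gins1, a GINS subunit, read 527, 471 and 286 in controls and 563, 566 and 218 in FOG1 ki/ki, a difference of -0.0071 log2 units (SE 0.41, limma adjusted p = 0.999). It was the member with the lowest difference, above control in pairs 1 and 2 and below in pair 3, and a dimmer Gins1 probe set gave 0.38. The differences were 0.30 for Mcm10, 0.24 for Gins3, 0.18 for Gins2 and 0.15 for Cdc45. A second Gins2 probe set gave -0.11 and a second Gins3 probe set -0.02. With control replicate 3 or 1 left out, the group's median was -0.15 or 0.27. With FOG1 ki/ki replicate 1, 2 or 3 left out it was -0.058, 0.042 or 0.48. Its direction thus changed with single arrays left out, which breaks a pair. With both arrays numbered 1, 2 or 3 left out it stayed above 0, at 0.24, 0.12 or 0.17.

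All 8 polymerase and primase genes had a mean difference above 0, with a median of 0.30. None passed limma's test (0 of 8, smallest adjusted p = 0.909, or 0.207 with the block), and 2 had an unadjusted p under 0.05 with the block. Among all genes tested, 55.1% lay above 0 and 7.99% were higher at that level with the block. Pold2, the accessory subunit of polymerase delta, read 301, 202 and 167 in controls and 353, 294 and 291 in FOG1 ki/ki (difference 0.49 log2 units, SE 0.27, limma adjusted p = 0.909, or 0.207 with the block). Only the brightest control lay above the dimmest FOG1 ki/ki arrays. Prim1, the catalytic primase subunit, read 1034, 1058 and 422 in controls and 1098, 1253 and 614 in FOG1 ki/ki (0.28, SE 0.40). Both replicate 3 arrays lay far below the other 4, and FOG1 ki/ki was the higher of each pair.

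Pold1, the catalytic subunit of polymerase delta, differed by 0.34, and Pole and Pole2 of the leading-strand polymerase epsilon by 0.32 and 0.31. Pola2 and Pola1 of the polymerase that extends primers differed by 0.29 and 0.18, and the primase subunit Prim2 by 0.24. With control replicate 3 or 1 left out, the polymerase median was -0.0049 or 0.50. With FOG1 ki/ki replicate 1, 2 or 3 left out it was 0.17, 0.13 or 0.48. With both arrays numbered 1, 2 or 3 left out, which keeps pairs whole, it was 0.40, 0.28 or 0.18.

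The clamp, its loader and RPA had a median of 0.25, with 9 of 9 above 0. Pcna, the sliding clamp, read 1989, 2592 and 1776 in controls and 2023, 2248 and 2051 in FOG1 ki/ki, a difference of 0.0087 log2 units (SE 0.15, limma adjusted p = 0.999). All FOG1 ki/ki values lay within the range of the controls, and the pair differences were 0.02, -0.20 and 0.21. Pcna has 1 probe set here. Rfc2, a loader subunit, read 925, 1044 and 970 in controls and 1006, 1428 and 1688 in FOG1 ki/ki (0.45, SE 0.20, limma adjusted p = 0.791, or 0.187 with the block). The control values were close together, and 1 FOG1 ki/ki array, replicate 1, overlapped them. Other Rfc2 probe sets gave 0.56 and 0.64. Rpa2, the middle subunit of RPA, read 493, 367 and 266 in controls and 562, 487 and 480 in FOG1 ki/ki (0.46, SE 0.26, limma adjusted p = 0.894, or 0.211 with the block). The brightest control lay just above FOG1 ki/ki replicates 2 and 3.

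The other loader subunits ran from 0.16 for Rfc1, the large subunit, through 0.18 for Rfc5 and 0.27 for Rfc4 to 0.38 for Rfc3. Rpa3 and Rpa1 differed by 0.25 and 0.19. Leaving out control replicate 3 or FOG1 ki/ki replicate 2 brought the group median to 0.11 in either case.

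Lig1, the ligase that joins Okazaki fragments, had the largest difference of all members. It read 286, 251 and 142 in controls and 392, 434 and 337 in FOG1 ki/ki, a difference of 0.78 log2 units (SE 0.30, limma adjusted p = 0.635, or 0.107 with the block). All FOG1 ki/ki arrays lay above all controls, and the pair differences were 0.43, 0.75 and 1.16. Without control replicate 3 the difference was 0.50 (limma adjusted p = 0.66). The groups did not overlap for 2 members, Lig1 and E2f1, or 4.44% of the 45, while 6.32% of all genes tested were higher without overlap. Fen1, the nuclease that trims the flaps that Lig1 then seals, read 1725, 2039 and 1550 in controls and 1639, 1965 and 2100 in FOG1 ki/ki (0.10, SE 0.15). Fen1 lay below control in pairs 1 and 2 and was above it in pair 3 alone.

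Nucleotide synthesis genes had a median difference of 0.21, with 4 of 4 above 0, and the size varied widely within the group. Tk1, the thymidine salvage kinase, read 387, 301 and 85.2 in controls and 473, 497 and 217 in FOG1 ki/ki (difference 0.73 log2 units, SE 0.55, limma adjusted p = 0.968, or 0.158 with the block). It was higher in each pair, by 0.28, 0.69 and 1.20, and FOG1 ki/ki replicate 3 lay below control replicates 1 and 2. Rrm2, the regulated subunit of ribonucleotide reductase, read 1635, 1412 and 1099 in controls and 1533, 1654 and 1586 in FOG1 ki/ki (0.22, SE 0.16). A second Rrm2 probe set gave -0.23 and another 0.15, so the direction for Rrm2 depended on the probe set. Its partner Rrm1 differed by 0.21. Tyms, thymidylate synthase, was dim, with 48.0, 32.2 and 12.2 in controls and 51.0, 54.4 and 4.26 in FOG1 ki/ki (0.04), and its difference was -0.17 with a pseudocount of 1. The group median was 0.09 when all probe sets of a gene were averaged. With control replicate 3 or 1 left out it was 0.064 or 0.37, and with FOG1 ki/ki replicate 3 left out it was 0.48.

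Licensing, polymerase and nucleotide synthesis genes did not differ from each other beyond the spread between pairs. Licensing minus polymerase medians gave 0.02 ± 0.12, licensing minus nucleotide synthesis 0.05 ± 0.19 and polymerase minus nucleotide synthesis 0.03 ± 0.0827 (mean ± SD, n = 3 pairs). Polymerases had the highest of these medians in pair 1 (0.12, against 0.09 and 0.06 for licensing and nucleotide synthesis) and nucleotide synthesis in pair 2 (0.42, against 0.36 for polymerases and 0.30 for licensing). Licensing led in pair 3 (0.65, against 0.49 and 0.40). The order was different in each pair.

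**Figure D4:**
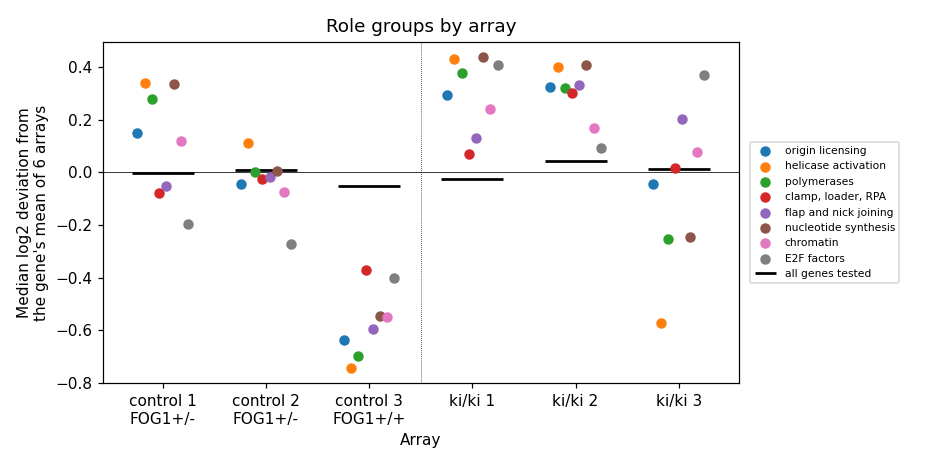
Median log2 deviation of each role group from its genes' means over the 6 arrays, by array (points), with the median over all genes tested as black lines. On control replicate 3 the group medians lie between -0.74 and -0.37, and on FOG1 ki/ki replicate 3 helicase activation genes (-0.57) lie lowest while E2F factors (0.37) lie highest.

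Chromatin genes of S phase had a median of 0.32 over 3 measured members. Uhrf1, which brings the methyltransferase to newly copied DNA, read 1163, 998 and 714 in controls and 1247, 1185 and 1110 in FOG1 ki/ki (difference 0.32 log2 units, SE 0.20, limma adjusted p = 0.935, or 0.258 with the block). The brightest control overlapped FOG1 ki/ki, and each pair was higher in FOG1 ki/ki. Dnmt1, that methyltransferase, read 1273, 1820 and 1621 in controls and 1427, 1717 and 2206 in FOG1 ki/ki (0.17, SE 0.20). Unlike most members, Dnmt1 was lowest on control replicate 1. Chaf1b, a subunit of the histone chaperone CAF-1, differed by 0.37. The group median was 0.17 without control replicate 3.

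E2f1 and E2f2, both E2F activators, formed the group whose median moved least when single arrays were left out, from 0.52 to 0.68 around 0.58. With both arrays of a number left out it ran from 0.48 to 0.69, more widely than helicase activation (0.12 to 0.24). E2f3, kept outside the set with the other E2F genes, differed by 0.21 (pairs 0.52, -0.0054 and 0.12). E2f1 read 116, 79.9 and 126 in controls and 144, 128 and 222 in FOG1 ki/ki (difference 0.53 log2 units, SE 0.31, limma adjusted p = 0.921, or 0.227 with the block). The groups did not overlap on this probe set, though FOG1 ki/ki replicate 2 was only just above control replicate 3. A dimmer E2f1 probe set gave 0.17, and there the groups overlapped. Among the members, E2f1 had the largest excess of the FOG1+/+ control over the FOG1+/- controls (0.34). E2f2 read 124, 158 and 81.8 in controls and 252, 176 and 155 in FOG1 ki/ki (0.63, SE 0.32, limma adjusted p = 0.866, or 0.218 with the block), higher in each pair and with 1 overlap. A second E2f2 probe set gave 0.43. With the probe sets of a gene averaged, the group median was 0.44.

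Other probe sets give a check within the same arrays. The 45 genes had 100 probe sets in all, 55 besides the brightest, and 40 of these passed the filter. Of the 40, 37 lay above control, with a median difference of 0.28. The 3 below were those of Gins2, Gins3 and Rrm2 named above. Mcm4, Mcm5, Mcm6, Pold1, Rfc2, Fen1, Rrm2 and Dnmt1 were read from probe sets with the _x_ suffix, which can bind other transcripts too, so these 8 are less certain.

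Genes of the same pathway outside the set mostly lay higher as well, and none passed limma's test in either fit. Of 36 further replication factors, 34 had a difference above 0, with a median of 0.25 (0 of 36 called, smallest limma adjusted p = 0.807, or 0.176 with the block, 0 at an unadjusted p under 0.05 and 11 with the block). Mcm8, a repair-linked MCM relative, read 87.8, 88.4 and 60.0 in controls and 120, 137 and 116 in FOG1 ki/ki (0.58). The checkpoint mediator Clspn differed by 0.67, the polymerase epsilon subunit Pole4 by 0.62 and the clamp loader factor Dscc1 by 0.67. Of these 4, Mcm8 and Dscc1 did not overlap between groups. In the whole list 5 of 36 were higher without overlap, against 6.32% of all genes tested. Beside the 34 above 0 and the 11 at an unadjusted p under 0.05 with the block stand 55.1% and 7.99% of all genes tested.

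Of 6 genes of S phase kinase control, 6 lay above 0 with a median of 0.31 (0 called, smallest limma adjusted p = 0.769, or 0.246 with the block, 0 at an unadjusted p under 0.05 and 2 with the block). They included the phosphatase Cdc25a at 0.65, Ccna2 at 0.34, Ccne1 at 0.45 and Cdk2 at 0.24. Among all genes tested, 55.1% lay above 0 and 7.99% were higher at an unadjusted p under 0.05 with the block. Other E2F and retinoblastoma family genes had a median of 0.19 (9 of 11 above, 0 called, smallest limma adjusted p = 0.968, or 0.315 with the block, 0 at an unadjusted p under 0.05 in either fit), with E2f8 at 0.24, Rbl1 at 0.35, Tfdp1 at 0.19 and E2f4 at 0.24. Further nucleotide metabolism genes differed less from control. Their median was 0.07 with 10 of 12 above (0 called, smallest limma adjusted p = 0.956, or 0.213 with the block, 0 at an unadjusted p under 0.05 and 1 with the block), and the named ones were Dtymk at 0.45, Ctps at 0.24, Dctd at 0.23 and Cmpk1 at 0.0751.

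A list of 20 mitosis genes, 19 of them tested, had medians of 0.09, 0.26 and 0.69 in pairs 1, 2 and 3 and 0.37 overall (18 of 19 above, 0 called, smallest limma adjusted p = 0.511, or 0.137 with the block, 1 at an unadjusted p under 0.05 and 7 with the block). Among all genes tested, 55.1% lay above 0, and 3% and 7.99% were higher at an unadjusted p under 0.05 without and with the block. The 4 mitosis genes with the smallest unadjusted p were Mki67 at 0.78, Ccnb2 at 0.46, Cdc20 at 0.32 and Kif11 at 0.60.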

How the data were processed

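The authors deposited linear intensities for each probe set, computed with MAS5, per the submitters' processing notes (version not given in the sources used here). The 2% trimmed mean of each deposited column was 150.0, so arrays were scaled to one target, and a change in total RNA per cell cannot show. The median signal was still lower on control and FOG1 ki/ki replicate 3 (7.75 and 5.93) than on the other arrays (10.3 to 12.3). Values of the replicate 3 arrays are also given with more digits. Whether those arrays were processed differently was not tested. Precision is limited by the number of arrays.

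Of 45101 probe sets, 64 control probe sets and the lower 50% by mean log2(signal + 16) were dropped. For each gene the brightest probe set with 1 gene symbol was kept, giving 11260 genes. The groups were compared in R 4.3.3 with limma 3.58.1 (lmFit, eBayes with a trend), two-sided, with Benjamini-Hochberg adjustment over all genes and a threshold of 0.05. On 10 simulated sets of 11260 genes with 200 changed, this fit found 16.8% of the changes of 1 log2 unit and 70.3% of those of 2 log2 units, and 5.84% of its calls were false. The simulated noise was independent between arrays, without the shared deviations or pooled control genotypes of these data, so these rates may not hold here.

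Same-numbered arrays of the 2 groups deviated together (r = 0.40, 0.61 and 0.57 across 45037 probe sets, 0.0181 at most between different numbers). Deviations within a group sum to 0, which builds in part of this contrast. The numbers were read as pairs from these data, since the labels state no shared litter or day, and adjusted p-values with the block are given beside the main ones for the set, most lists and most members given in full.

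The members, role groups, other lists and promoter motifs were chosen with earlier results of these data known. Full values were given for the 12 members with the smallest unadjusted p, the brightest member of each role group (by mean log2), the members with the lowest and highest difference, and any called. Tk1 and Tyms were added after their values were seen. Of each other pathway list, up to 4 genes with the smallest p were named, with Orc3, Orc4, Orc5 and E2f3 added after their values were seen. Symbols came from the platform annotation, and promoters from RefSeq. Python 3.11.15, pandas 2.3.3 and matplotlib 3.10.9 did the rest. Other pseudocounts, normalizations, filters, probe set choices, the block and left-out arrays were tried.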

Additional observations from a re-analysis of the deposited data

How the results depend on the processing

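With 3 cultures a group the limits are the spread between cultures and the pooled control genotypes. Median SE was 0.30 log2 units over the members, or 0.16 with the block, near the size of the differences themselves. No member was called under any of the 19 alternatives run.

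Of all genes, limma called 17, and 8 with a pseudocount of 1, 1 with no filter on dim probe sets, 3 in the brightest 25% of probe sets, 94 with the replicate block and 1 to 2 with any array left out. It called 0 with both arrays numbered 1, 2 or 3 left out (622, 472 and 694 at an unadjusted p under 0.05). The replicate block changed no call among the members.

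Leaving out each array in turn moved the members' median between 0.10 and 0.46 and the count above control between 30 and 45. The role group medians ran from 0.11 to 0.51 for licensing, -0.15 to 0.48 for helicase activation, -0.0049 to 0.50 for polymerases, 0.11 to 0.37 for the clamp, loader and RPA, 0.26 to 0.54 for flap and nick joining, 0.064 to 0.48 for nucleotide synthesis, 0.17 to 0.47 for chromatin and 0.52 to 0.68 for E2F factors. Leaving out 1 array breaks a pair. With both arrays of a number left out, the members' median ran from 0.18 to 0.37 and the count above control from 43 to 44. With other pseudocounts, normalizations, filters and probe set choices, the members' median stayed between 0.24 and 0.33.

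Single members turned sign in 35 cases, 26 of them with 1 array left out, which breaks a pair. Over the left-out arrays Gins1 ran from -0.26 to 0.43, Pcna from -0.11 to 0.16, Cdc45 from -0.18 to 0.48, Gins2 from -0.15 to 0.59, Gmnn from -0.15 to 0.57, Tyms from -0.28 to 0.63, Mcm10 from -0.11 to 0.69, Rfc5 from -0.12 to 0.48, Cdc6 from -0.12 to 0.58, Cdt1 from -0.011 to 0.53, Mcm5 from -0.084 to 0.66, Pola1 from -0.16 to 0.47, Pole from -0.080 to 0.55, Prim1 from -0.14 to 0.59 and Prim2 from -0.074 to 0.51. Gins1 was 0.0022 with a pseudocount of 64, 0.0072 with quantile normalization, 0.0066 with median centring, 0.19 averaged over its probe sets and 0.17 without the arrays numbered 3. Tyms was -0.17 with a pseudocount of 1 and -0.21 without the arrays numbered 2. Without the arrays numbered 3, Fen1 was -0.063 and Pcna -0.090. The cause was not tested.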
